A study of Mus musculus with 6 samples.

Results

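The heat shock chaperone genes examined here are 10 genes that the transcription factor HSF1 drives, chosen by symbol from a table of 55335 genes. They are Hspa1a, Hspa1b, Hspa8, Dnajb1, Hsph1, Bag3, Hsp90aa1, Hspb1, Hspd1 and Hspe1. All 10 passed the filter on low counts, with between 724 and 39738 counts per library. RNA was sequenced from the aorta of wild-type C57BL/6 mice (written c57b6l in the labels), with 3 libraries from mice of 6 weeks (young) and 3 from mice of 6 months (aged). The study's methods describe all mice as male, killed under xylazine, with the fat around the aorta dissected and a vessel piece taken from each. The labels number the samples within an age, name no treatment and do not say whether a library holds 1 mouse, so p values measure only the spread between these samples. The comparison asks how the vessel wall differs between these ages.

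Molecular chaperones bind unfolded or partly folded proteins and keep them from aggregating. In the heat shock response, HSF1 is released from chaperones when unfolded proteins accumulate, forms trimers and binds heat shock elements, which are inverted repeats of the letters GAA, in the promoters of chaperone genes. In arteries the small heat shock protein HSPB1 is known to bind actin filaments of smooth muscle, and HSP90 is known to hold endothelial nitric oxide synthase in its active form.

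Total counts lay between 31049632 and 45832185 per library, and the smooth muscle marker Acta2 was at 12229 CPM or above in each (CPM is the count scaled to a common library size after TMM normalization). Libraries also differed in makeup by age, with 14.9% to 21.2% of counts from the mitochondrial genome in young and 23.1% to 30.4% in aged libraries, and TMM factors of 1.06 to 1.11 and 0.886 to 0.943. The part of these differences in the values below was not tested beyond 2 alternatives, a fit without mitochondrial genome genes and one on FPKM. Several libraries stood apart from the others, and the genes given for this were chosen after their values were seen. Young replicate 1 went against the male sex that the methods give, with Xist at 305.6 CPM against 0.636 or less elsewhere and Ddx3y at 1.09 CPM against at least 44.8. Its cardiac marker Myh6 was at 79.7 CPM against 13.1 or less, and its clock gene Arntl at 49.8 CPM against 8.14 or less. Aged replicate 2 had Ucp1, of brown fat, at 1422 CPM against 361 or less. Aged replicate 3 had the endothelial marker Pecam1 at 869.9 CPM against 225 or less.

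None of the 10 genes passed the test between aged and young aorta. With the quasi-likelihood test of edgeR and p values adjusted by Benjamini-Hochberg over 16612 genes, 0 of 10 had an adjusted p below 0.05, where 0.0% of all genes were called. The lowest adjusted p among them was 0.377, for Hspb1. At an unadjusted p below 0.05 there were 2 of 10, Hspb1 and Hsp90aa1, both higher in aged aorta, against 10.4% of all genes and 5.56% in that direction. DESeq2's Wald test called 1 of 10, Hspb1, and 1.91% of all genes. The fitted change was positive for 9 of 10 genes, with a median log2 fold change of 0.24 against 0.02 over all genes tested. This median rested on aged replicate 2. Without that library it was -0.00094, and 5 of 10 genes had a positive value. It also depended on the scaling. With limma on the deposited FPKM (the authors' counts scaled for length and library, in log2 after adding 1), 6 of 10 genes were positive and their median was 0.025, while the median of all genes was -0.12. Without mitochondrial genome genes, Hspb1 was at 1.14 and Hsp90aa1 at 0.47, as in the fit with them. In bulk tissue, fewer cells of a type and less RNA per cell cannot be told apart.

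**Figure D1:**
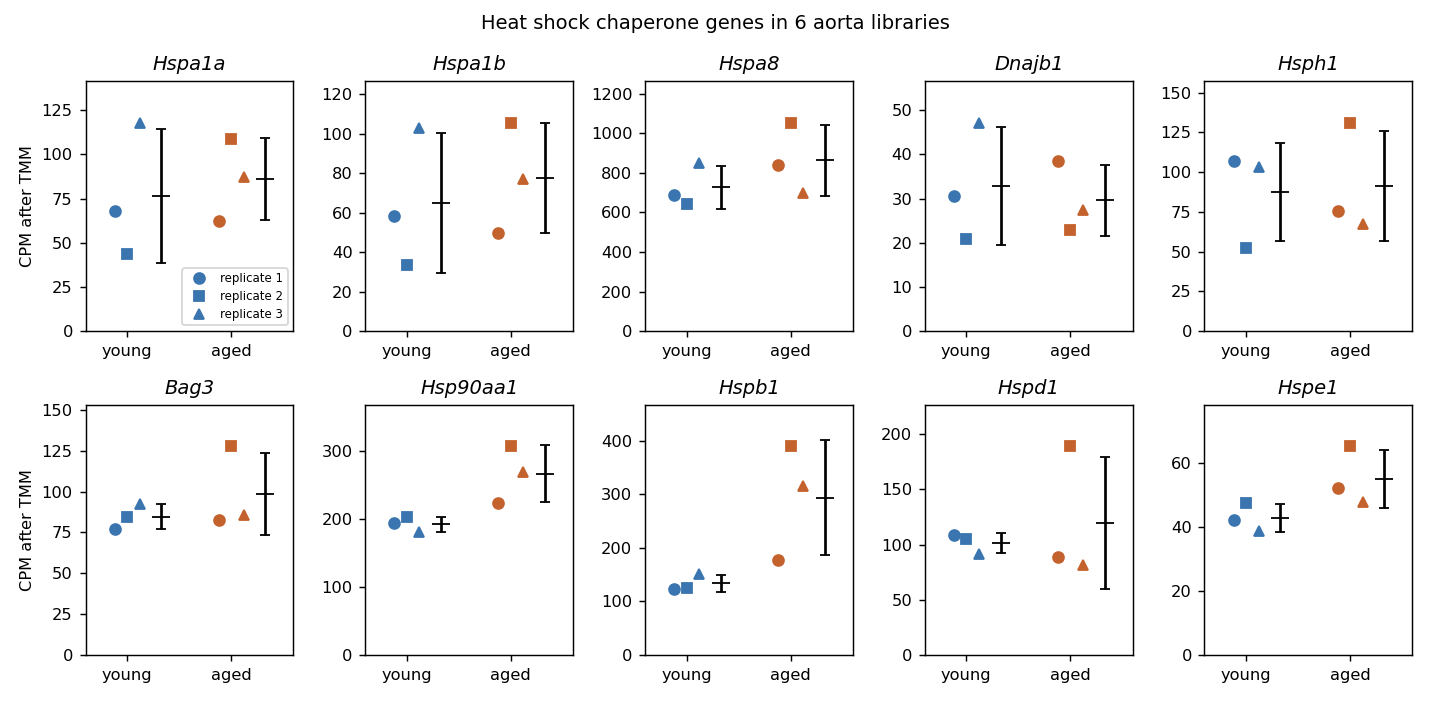
Normalized counts (CPM after TMM, linear axis from 0) of the 10 heat shock chaperone genes in young (6 weeks, blue) and aged (6 months, orange) aorta. Each point is 1 library, its shape gives the replicate number, and the black bar is the mean with the SD of 3 libraries. On this scale the aged points of Hsp90aa1, Hspb1 and Hspe1 lie above all young points, and aged replicate 2 is the highest point in 8 of the 10 panels.

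Heat shock elements, the sites through which HSF1 is known to act, were sought in the promoters of these genes. RefSeq promoters, from 250 bases before to 50 bases after the start site on GRCm38.p6, were available for 8 of the 10 genes. None was available for Hspa8 and Hsp90aa1. A pair of inverted GAA repeats, GAANNTTC or TTCNNGAA, was found in 7 of the 8 genes and in 15.1% of 32544 distinct promoters of that length. Each of these motifs reads the same on both strands. The run of 3 repeats, GAANNTTCNNGAA or its reverse TTCNNGAANNTTC, contains the shorter motifs. It was found in 3 of the 8, namely Hsph1, Hspd1 and Hspe1, and in 0.608% of all promoters. A match is a description of the letters and not evidence of binding. The genes were chosen as ones that HSF1 drives, so these counts describe the list and are not a result. A gene was counted if any of its windows matched, while the percentages are over single promoters. Hsph1, Dnajb1 and Hspd1 have 2 windows each. Hspa1a and Hspa1b have nearly the same promoter, and Hspd1 and Hspe1 share a run, so their matches are not independent. For Dnajb1 neither motif was found in these windows. The sequences of 4 promoters follow 5′ to 3′ in lower case, with every pair of inverted repeats in capitals. They are shown because they stand for the gene with the largest difference (Hspb1), the inducible HSP70 pair (Hspa1a), a promoter that 2 of the genes share (Hspe1) and a gene with the 3-repeat element past its start site (Hsph1).
Hspb1, chr5:135887669-135887968, plus strand: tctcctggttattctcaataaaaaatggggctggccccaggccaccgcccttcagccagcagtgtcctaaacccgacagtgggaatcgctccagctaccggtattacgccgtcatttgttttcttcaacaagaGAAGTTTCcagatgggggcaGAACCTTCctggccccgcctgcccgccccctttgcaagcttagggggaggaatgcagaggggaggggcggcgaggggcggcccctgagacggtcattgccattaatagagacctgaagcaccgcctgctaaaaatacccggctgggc
Hspa1a, chr17:34972107-34972406, minus strand: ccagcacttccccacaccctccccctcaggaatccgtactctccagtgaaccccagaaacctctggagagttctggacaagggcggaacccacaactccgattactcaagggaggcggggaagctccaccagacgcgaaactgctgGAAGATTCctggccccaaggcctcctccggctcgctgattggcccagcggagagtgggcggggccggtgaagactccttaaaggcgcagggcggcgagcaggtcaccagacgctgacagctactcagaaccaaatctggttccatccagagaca
Hspe1, chr1:55087898-55088197, plus strand: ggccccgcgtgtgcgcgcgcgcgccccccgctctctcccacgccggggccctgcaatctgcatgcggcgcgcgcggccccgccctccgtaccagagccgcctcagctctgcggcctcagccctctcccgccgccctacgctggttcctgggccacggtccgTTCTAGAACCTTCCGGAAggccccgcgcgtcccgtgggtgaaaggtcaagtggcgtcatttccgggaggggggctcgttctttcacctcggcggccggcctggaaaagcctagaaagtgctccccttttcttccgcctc
Hsph1, chr5:149636287-149636586, minus strand: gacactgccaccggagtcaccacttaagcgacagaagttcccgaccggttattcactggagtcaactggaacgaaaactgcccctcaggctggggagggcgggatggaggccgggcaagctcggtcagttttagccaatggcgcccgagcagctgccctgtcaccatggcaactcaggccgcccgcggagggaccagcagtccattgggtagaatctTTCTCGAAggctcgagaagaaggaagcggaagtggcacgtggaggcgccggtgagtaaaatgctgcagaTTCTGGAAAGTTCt

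Counting from the start site, the repeats of Hspb1 began at positions -117 and -97, and that of Hspa1a at -104. The Hspa1b promoter matched that of Hspa1a at 296 of 300 bases and held its repeat at the same position. In Hspe1 the repeats began at -89, -84 and -79 and overlapped, so that they formed 1 run. The same run lies in 1 of the RefSeq promoters of Hspd1, which starts 216 bases from the Hspe1 start site and is read from the opposite strand. In the Hsph1 window shown, the 3-repeat element began 36 bases after the start site.

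Hspa1a and Hspa1b encode the stress-inducible HSP70 proteins, which are scarce in unstressed tissue and are among the strongest targets of HSF1. They lie on chromosome 17 of GRCm38 (GENCODE M21), at 34969190 to 34972156 and 34956436 to 34959238, 9951 bases apart on the minus strand. Hspa1a was at 68.1, 43.4 and 118 CPM in young replicates 1, 2 and 3, and at 62.5, 109 and 87.0 CPM in aged replicates 1, 2 and 3. Hspa1b was at 58.3, 33.4 and 103 CPM in young and at 49.6, 106 and 77.2 CPM in aged aorta. In both genes the lowest library was young replicate 2 and the groups overlapped over most of their range. The span from the lowest to the highest library was 2.72-fold for Hspa1a and 3.16-fold for Hspa1b. Between the ages Hspa1a differed by a log2 fold change of 0.17 (standard error 0.37, 95% interval -0.71 to 1.05, adjusted p = 0.889 by edgeR). The value for Hspa1b was 0.26 (standard error 0.43, 95% interval -0.76 to 1.27, adjusted p = 0.850 by edgeR). Single libraries turned or moved both values. They were -0.031 and -0.032 without aged replicate 2, and -0.10 and -0.046 without young replicate 2. They were 0.64 and 0.77 without young replicate 3, and 0.36 and 0.49 without aged replicate 1.

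Hspa1a and Hspa1b share sequence, so reads of one can be counted for the other and their values are not independent. Of 2918 windows of 50 bases, the read length, in the Hspa1a transcript, 58.8% also occur in Hspa1b. The ratio of their FPKM lay between 0.972 and 1.23 in the 6 libraries. The levels of either gene alone are therefore uncertain. Hspa1l, a testis-enriched HSP70 gene beside Hspa1a, shares 7.95% of these windows. It was at 5.66 to 8.67 CPM in aged and 11.7 to 18.0 CPM in young aorta, a log2 fold change of -1.01 (adjusted p = 0.377 by edgeR).

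Hspa8 encodes the constitutive HSP70, which folds new proteins in all cells and strips clathrin from vesicles. It lies on chromosome 9 from 40800984 to 40810087 and had the most counts of the 10 genes, 39.7% to 49.8% of their summed CPM. Its level was 688, 640.3 and 850.1 CPM in young replicates 1, 2 and 3, and 842, 1053 and 697.5 CPM in aged replicates 1, 2 and 3. Young replicate 3 lay above 2 of the aged libraries, so the groups overlapped. The log2 fold change was 0.25 (standard error 0.21, 95% interval -0.24 to 0.75, adjusted p = 0.687 by edgeR), 0.085 without aged replicate 2 and 0.021 with limma on FPKM. Hspa8 has processed copies elsewhere in the genome, and 34.6% of its windows occur in the pseudogene Gm15459, which was given 3656 to 6392 counts.

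Dnajb1, Hsph1 and Bag3 encode partners of HSP70. Dnajb1, on chromosome 8 from 83608193 to 83612653, encodes the J-domain protein HSP40, which delivers clients and stimulates the ATPase of HSP70. It was at 30.5, 20.8 and 47.2 CPM in young and at 38.5, 22.9 and 27.5 CPM in aged replicates 1, 2 and 3. Dnajb1 was the only one of the 10 with a negative fitted change, at -0.15 (standard error 0.33, 95% interval -0.91 to 0.62, adjusted p = 0.891 by edgeR), and the sign turned without young replicate 3 (0.21) and without aged replicate 2 (0.0093). Its highest library was young replicate 3, as for Hspa1a, while aged replicate 2, high for most others, was the second lowest.

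Hsph1 encodes HSP105, which exchanges the nucleotide of HSP70 and helps to dissolve aggregates. It lies on chromosome 5 from 149614287 to 149636376 and was at 107, 52.0 and 103 CPM in young and at 75.3, 131 and 67.6 CPM in aged replicates 1, 2 and 3. Its difference was 0.064 on the log2 scale (standard error 0.35, 95% interval -0.76 to 0.89, adjusted p = 0.961 by edgeR), -0.29 without aged replicate 2 and -0.19 without young replicate 2. With limma on FPKM it was -0.14. Bag3, on chromosome 7 from 128523616 to 128546981, encodes an exchange factor that links HSP70 to small heat shock proteins and to selective autophagy in muscle under tension. It was at 77.1, 84.3 and 92.4 CPM in young and at 82.4, 128 and 85.4 CPM in aged replicates 1, 2 and 3. For Bag3, aged replicates 1 and 3 lay within the young range and replicate 2 above it. Its log2 fold change was 0.22 (standard error 0.21, 95% interval -0.27 to 0.71, adjusted p = 0.724 by edgeR), and -0.011 without aged replicate 2 and -0.026 with limma on FPKM. None of the 50-base windows of Hsph1 or Bag3 occurs in another gene.

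Hsp90aa1 encodes the inducible form of cytosolic HSP90, which matures kinases and steroid receptors. It lies on chromosome 12 from 110690605 to 110702728. In young replicates 1, 2 and 3 it was at 193, 202 and 180.1 CPM, and in aged replicates 1, 2 and 3 at 223, 306 and 269 CPM. In CPM every aged library lay above every young one, which was so for 3 of the 10 genes and for 7.74% of all genes. The reverse order was found in 0 of the 10 and in 8.78% of all genes. In FPKM the groups overlapped for all 10, including these 3, against 3.24% of all genes with the aged libraries higher and 20.9% with them lower. For Hsp90aa1, aged replicate 1 (48.3 FPKM) lay below young replicate 2 (50.5 FPKM). The fold was 1.39 (log2 fold change 0.47, standard error 0.17, 95% interval 0.073 to 0.87, unadjusted p = 0.0263, adjusted p = 0.429 by edgeR). With limma on FPKM the log2 fold change was 0.24 (unadjusted p = 0.179). With 1 library left out it lay between 0.36 and 0.58 by edgeR, and in 5 of these 6 fits, all but the one without aged replicate 1, it missed the unadjusted threshold too. Of its windows 41.8% occur in the pseudogene Gm12346, which was given at most 1445 counts.

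Hspb1 had the largest difference of the 10 genes. It encodes the small heat shock protein HSP25 of mice (HSP27 in humans), which holds unfolded clients without ATP and is phosphorylated downstream of p38 in smooth muscle. The gene lies on chromosome 5 from 135887919 to 135889563. Young replicates 1, 2 and 3 were at 124, 126 and 152 CPM, and aged replicates 1, 2 and 3 at 178, 389.8 and 315 CPM. The young libraries lay close together while aged replicates 2 and 3 were far above them and aged replicate 1 just above. The means were 134 ± 15.5 CPM (SD, n = 3) and 294 ± 108 CPM (SD, n = 3), a 2.20-fold difference (log2 fold change 1.14, standard error 0.29, 95% interval 0.46 to 1.81, unadjusted p = 0.00522, adjusted p = 0.377 by edgeR). By DESeq2 the adjusted p was 0.0224 at a log2 fold change of 1.15. With 1 library left out the log2 fold change lay between 0.88 (without aged replicate 2) and 1.40 (without aged replicate 1), with adjusted p of 0.244 or more by edgeR. Without young replicate 1 it was 1.10. With limma on FPKM it was 0.84 (adjusted p = 0.269), and the 2 groups met, with aged replicate 1 and young replicate 3 both at 147 FPKM. A processed copy, Hsp25-ps1, shares 48.8% of the windows of Hspb1 and was given 347 to 1409 counts with a log2 fold change of 1.14. It is not independent evidence.

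**Figure D2:**
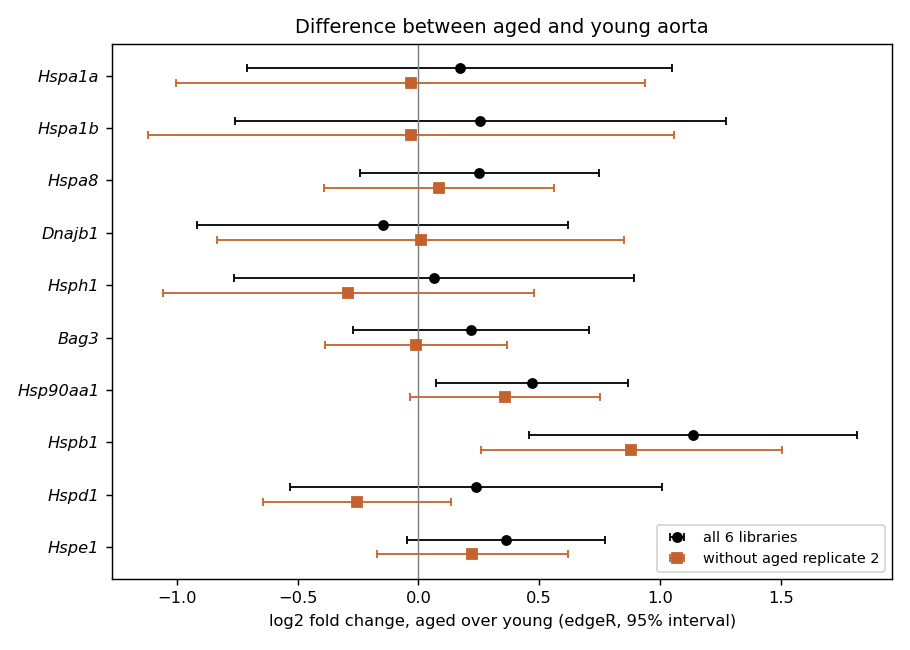
Log2 fold change of aged over young aorta from edgeR for each gene, with all 6 libraries (black circles) and without aged replicate 2 (orange squares). Bars are 95% intervals, which are not adjusted for the number of genes. The Hspb1 interval stays above 0 in both fits, that of Hsp90aa1 in the fit of all libraries, and the points of Hspa1a, Hspa1b, Hsph1, Bag3 and Hspd1 move from above to below 0 when the library is left out, while that of Dnajb1 moves from below to above.

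Hspd1 and Hspe1 encode HSP60 and HSP10, the barrel and the lid of the chaperonin that folds proteins inside mitochondria. They lie head to head on chromosome 1, Hspd1 from 55077835 to 55088243 on the minus strand and Hspe1 from 55088132 to 55091307 on the plus strand, with annotated ends that overlap by 112 bases. Hspd1 was at 109, 105 and 91.1 CPM in young and at 88.6, 189 and 81.5 CPM in aged replicates 1, 2 and 3. Aged replicates 1 and 3 lay below all young libraries and replicate 2 far above them. The log2 fold change of 0.24 (standard error 0.33, 95% interval -0.53 to 1.01, adjusted p = 0.812 by edgeR) turned to -0.25 without aged replicate 2 and to -0.083 with limma on FPKM. Hspe1 was at 42.2, 47.4 and 38.8 CPM in young and at 52.1, 65.3 and 47.8 CPM in aged replicates 1, 2 and 3. Its groups did not overlap in CPM, where young replicate 2 and aged replicate 3 were nearly equal, but aged replicate 3 was the lowest of all libraries in FPKM. The log2 fold change was 0.36 (standard error 0.17, 95% interval -0.046 to 0.77, adjusted p = 0.524 by edgeR), 0.22 without aged replicate 2 and 0.13 with limma on FPKM.

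The ratio within the pair varied between libraries. Hspd1 over Hspe1 in FPKM was 1.43, 1.23 and 1.31 in young replicates 1, 2 and 3, and 0.948, 1.62 and 0.951 in aged replicates 1, 2 and 3. The aged libraries lay on both sides of the young range. Copies of both genes exist, with 38.0% of the Hspd1 windows in Hspd1-ps3, which was given at most 190 counts.

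Aged replicate 2 was the highest library for 8 of the 10 genes in CPM and for 7 in FPKM. Over all genes tested it was the highest in 17.7% in CPM, a share that was not computed in FPKM. The exceptions in CPM were Hspa1a and Dnajb1, both highest in young replicate 3. Young replicate 2 was the lowest in CPM for 5 of the 10, namely Hspa1a, Hspa1b, Hsph1, Dnajb1 and Hspa8, and for 15.9% of all genes. In FPKM it was the lowest for 3 of the 10 and aged replicate 3 for 4. The summed CPM of the 10 genes was 1497, 1355 and 1775 in young replicates 1, 2 and 3, and 1691, 2499.6 and 1756 in aged replicates 1, 2 and 3. Aged replicate 2 was also the highest in 5 of 5 brown adipocyte markers, whose summed CPM was 1863 there and 69.3 to 545 in the other libraries. Its summed adipocyte markers were 1846 CPM against 381 to 1144, of which Fabp4 alone gave 1518 CPM. Plin1, Cidec and Adipoq were highest there too, Adipoq at 94.3 CPM against 87.1 CPM in young replicate 2. Lep was highest in young replicate 2 and Retn in young replicate 1. The part of fat in the chaperone levels was not tested.

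**Figure D3:**
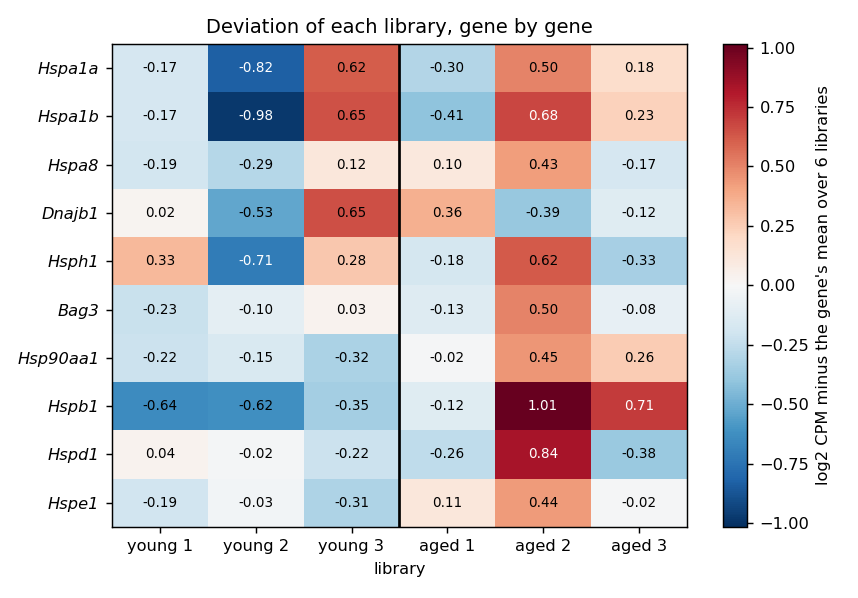
Deviation of each library from the gene's mean over 6 libraries, in log2 CPM, for the 10 heat shock chaperone genes (rows) in the young and aged libraries (columns, split by the black line). Red is above and blue below the mean. The aged replicate 2 column is red in all rows but Dnajb1, and young replicate 2 is blue throughout, deepest in Hspa1a and Hspa1b.

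Within the family, libraries did not order all genes alike. Over the 45 pairs of genes and 6 libraries, the median Pearson correlation of log2 CPM was 0.571, and 25 pairs were above 0.5. These correlations are descriptions over libraries that share age groups and normalization. Hspa1a and Hspa1b had the highest at 0.995, which their shared sequence bears on. Hsp90aa1 and Hspb1 were next at 0.946 and share no window. Hsp90aa1 and Hspe1 were at 0.868, and Hspa8 and Bag3 at 0.835. The values of Dnajb1 with Hsp90aa1, Hspb1, Hspd1, Hspe1 and Bag3 made up the 5 negative pairs, from -0.555 to -0.280.

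Per unit of gene length, Hspb1 and Hspa8 were the most abundant of the 10. In the deposited FPKM, Hspb1 was at 183 ± 83.8 (SD, n = 6) and Hspa8 at 167 ± 30.7 (SD, n = 6), and Hspb1 was above Hspa8 in 2 of 6 libraries, aged replicates 2 and 3. The range of Hspa8 did not overlap with that of the next gene, Hsp90aa1, at 52.2 ± 7.86 (SD, n = 6). Hspd1, Bag3, Hspe1, Hspa1a and Hspa1b followed between 37.9 and 22.9, each with a range that overlapped its neighbour's. Hspa1b was above Hsph1 in 6 of 6 libraries. Hsph1 at 11.2 ± 3.79 and Dnajb1 at 8.88 ± 3.27 (SD, n = 6 each) came last, and Dnajb1 was above Hsph1 in 2 of 6 libraries. The constitutive HSP90 gene Hsp90ab1 was at 270 ± 31.2 FPKM (SD, n = 6), above Hsp90aa1 in its whole range.

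**Figure D4:**
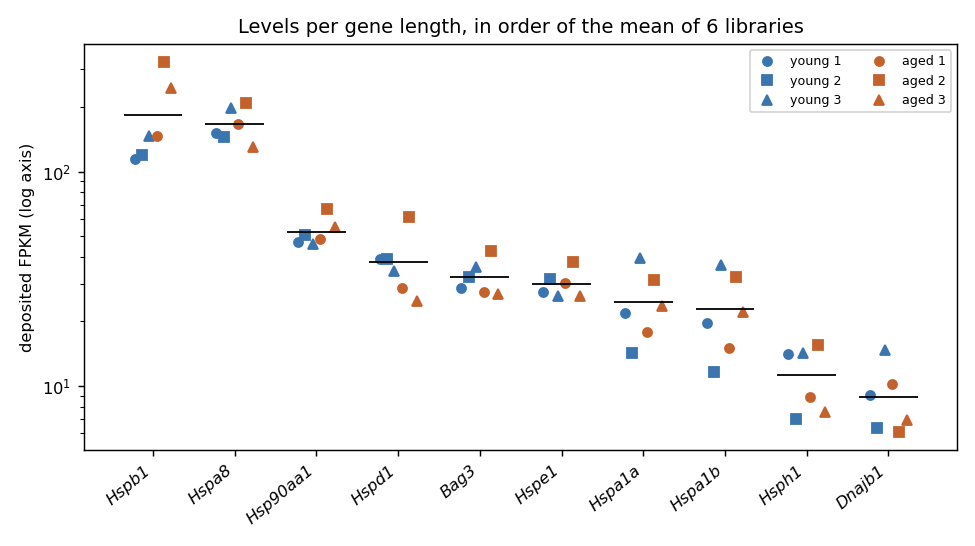
Deposited FPKM (log axis) of the 10 genes in order of their mean over 6 libraries, which the black lines mark. Colours give the age and shapes the replicate. Hspb1 and Hspa8 stand above the other 8 genes, and the points of the genes from Hspd1 to Hspa1b overlap.

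The rest of the heat shock network was read from lists that gave 61 other genes, of which 58 passed the filter. By edgeR 0 of 58 passed the threshold. At an unadjusted p below 0.05, 3 were higher and 2 lower in aged aorta, against 5.56% and 4.82% of all genes, and DESeq2 called 0 of them. Their median log2 fold change was 0.12, with 39 of 58 positive. With limma on FPKM the median was -0.095 and 25 of 58 were positive. The median of all genes was also lower on that scale, at -0.12 against 0.02 by edgeR, and 5239 of 16612 were positive. The signs in these lists, which are given from edgeR, therefore depend on the scaling, which shifted genes in general. Hsf1, which encodes the factor itself, was at 25.5, 35.7 and 33.1 CPM in young and at 21.8, 31.1 and 25.3 CPM in aged replicates 1, 2 and 3 (log2 fold change -0.27, adjusted p = 0.657 by edgeR). Hsf2, a related factor, was at 16.2 to 19.9 CPM in young and 13.6 to 16.0 CPM in aged aorta. Its log2 fold change was -0.31 (adjusted p = 0.572 by edgeR). Hsf4 and Hsbp1, which encodes a protein that binds heat shock factors, had log2 fold changes of 0.20 and -0.017.

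Among other HSP70 genes and co-factors, 11 of 16 had a positive value with a median of 0.28 (9 of 16 and 0.027 with limma on FPKM). Those with the smallest p were Hspa1l, given above, Hspa12a (0.88, adjusted p = 0.486 by edgeR) and the exchange factor gene Bag5 (0.30, adjusted p = 0.508). For HSP90 genes and co-chaperones, 8 of 11 were positive with a median of 0.084 (4 of 11 and -0.14 with limma on FPKM), and those with the smallest p were Ptges3 (p23, 0.36), Cacybp (0.51) and Ahsa1, an activator of the HSP90 ATPase (0.23). Of the J-domain genes, Dnaja1 was at 76.0 to 93.0 CPM in young and 94.1 to 150.3 CPM in aged aorta (log2 fold change 0.52, adjusted p = 0.455 by edgeR). Dnajb2 went the other way at -0.58 (adjusted p = 0.443 by edgeR), and Dnaja2 was at 0.25.

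Small heat shock proteins other than Hspb1 had a median of 0.18 over 5 genes tested (-0.052 with limma on FPKM), while Cryaa, Hspb3 and Hspb9 had too few counts. Hspb7, a muscle member, was at 329, 695 and 625 CPM in young replicates 1, 2 and 3. In aged aorta it was at 694 to 775 CPM (log2 fold change 0.43, adjusted p = 0.618 by edgeR). Cryab (alpha B crystallin) was at 0.23 and Hspb2 at -0.20. The 8 subunits of the cytosolic chaperonin TRiC, which folds actin and tubulin, had positive values in 8 of 8 by edgeR, where 52.1% of all genes were positive. With limma on FPKM 4 of 8 were positive, where 5239 of 16612 genes were. Cct7, Cct8 and Cct2 were at 0.33, 0.25 and 0.24 by edgeR, and 0 of 8 had an unadjusted p below 0.05, against 10.4% of all genes. Of 6 other HSF1 targets, 2 had a positive value by edgeR and 4 a negative one, with a median of -0.061 (2 of 6 positive and -0.27 with limma on FPKM). The positive 2 were the polyubiquitin gene Ubb (0.57, adjusted p = 0.415 by edgeR) and the autophagy receptor gene Sqstm1 (0.44, adjusted p = 0.472 by edgeR). Their groups did not overlap in CPM, with the aged libraries higher, as in 7.74% of all genes. In FPKM the groups of both overlapped. Dedd2 was at -0.40.

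Chaperones of the endoplasmic reticulum belong to a separate response and had 12 of 13 positive values with a median log2 fold change of 0.18 by edgeR. With limma on FPKM 5 of 13 were positive and the median was -0.057, where that of all genes was -0.12. Dnajb9 was at 24.7 to 26.8 CPM in young and 34.4 to 35.9 CPM in aged aorta (0.44, adjusted p = 0.383 by edgeR), while Manf and Hsp90b1 were at 0.33 and 0.32. Their summed CPM in aged replicate 2, at 1965, was the lowest of the aged libraries. The cold-inducible RNA-binding protein genes Cirbp and Rbm3, which respond to temperature in the opposite sense, had log2 fold changes of -0.26 and 0.24 (adjusted p = 0.608 and 0.651 by edgeR).

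Immediate early genes, which respond within minutes to handling or stress, had a median of -0.28 over 10 genes by edgeR. With limma on FPKM it was -0.45. Junb was at 1.22 (adjusted p = 0.377 by edgeR), with 45.0 to 78.5 CPM in young and 127 to 211 CPM in aged aorta. Atf3 was at -1.79 (adjusted p = 0.377 by edgeR) and Nr4a1 at -0.69 (adjusted p = 0.428 by edgeR). Their summed CPM was lowest in young replicate 2 (932) and aged replicate 2 (989.7). Clock genes had a median of -0.14 over 14 by edgeR (-0.037 with limma on FPKM). Those with the smallest p were Clock (-1.08), Npas2 (-2.47) and Cry1 (0.63). In young replicate 1 Clock was at 60.0 CPM against 36.8 or less elsewhere, and Npas2 at 71.2 CPM against 9.97 or less.

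All 6 macrophage markers had positive values and their summed CPM was 42.2 to 50.9 in young and 66.9 to 169 in aged aorta. Summed smooth muscle markers were at 31097 to 39382 CPM in young and 27359 to 32715 CPM in aged aorta, with 7 of 7 values below 0. Fibroblast markers summed to 1858 to 2856 CPM in young and 1704 to 6578 CPM in aged aorta, where aged replicate 2 was lowest. Endothelial markers summed to 328 to 1587 CPM in aged and 383 to 471 CPM in young aorta. The summed macrophage markers were lowest of the aged libraries in aged replicate 2. Cardiac markers summed to 340 CPM in young replicate 1 and 44.9 to 62.7 CPM elsewhere, and skeletal muscle markers stayed at 24.2 CPM or below. The part of these cells in the Hspb1 and Hsp90aa1 differences was not tested.

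The 5 genes whose log2 CPM followed the mean standardised level of the 10 genes most closely over the 6 libraries were Slc23a1 (Pearson r = 0.990), Olfr1034 (0.987), Gm15459 (0.983), Gm9817 (0.982) and Tgfbr1 (0.980). Gm15459 and Gm9817 share windows with Hspa8 and Hspb1, respectively, so their likeness may not be independent of those genes. Slc23a1 had 9 to 49 counts per library. Of 16602 genes compared, 13 had r of 0.95 or more, and the values describe these 6 libraries only.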

How the data were processed

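Aorta RNA in 6 libraries was sequenced as single-ended reads of 50 cycles. The authors deposited a table of raw counts per gene, which are whole numbers, and a table of FPKM, which scales the counts for gene length and sequencing depth. The labels name mm10 (GRCm38) as the build; the aligner, counting tool and annotation are not given in the sources used here, nor whether counting used strand. Coordinates are those of GENCODE M21. Counts were filtered in R 4.3.3 with edgeR 4.0.16 (filterByExpr, minimum count of 10, minimum total of 15), which kept 16612 of 55335 genes, normalized by TMM and fitted by quasi-likelihood without covariates. P values were adjusted by Benjamini-Hochberg across the 16612 genes and called below 0.05. The smallest count of a chaperone gene, 724, has a counting error of 3.72%, so the spread between libraries limits the precision. Windows of 50 bases were compared with all GENCODE transcripts on both strands.

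The genes and lists were chosen with earlier results of these data known. Named are all 10 genes, the 3 genes of smallest p of each list (all where a list has 4 or fewer), the 5 most alike genes, Hsf1 and markers. Alternatives were RLE size factors, other filters, robust fitting, the replicate number as a block, libraries left out, removal of mitochondrial genes, DESeq2 1.42.0 and limma 3.58.1 on FPKM in log2 after adding 1 or 0.1.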

Additional observations from a re-analysis of the deposited data

How the results depend on the processing

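With 3 libraries per age, the spread between libraries and not the depth limits these comparisons, and the widest interval of the 10, that of Hspa1b, reached from -0.76 to 1.27 on the log2 scale. The count of 0 genes called by edgeR, overall and among the heat shock chaperone genes, was also 0 with RLE size factors, no filter, at least 10 counts in every library, robust fitting, removal of mitochondrial genes and limma on FPKM. DESeq2 called 305 genes, 217 higher and 88 lower, with 1 of the 10 among them (Hspb1, log2 fold change 1.15) and 2 genes of the pathway and comparison lists (Junb and Atf3). With 1 library left out, edgeR called between 0 and 110 genes, the latter without aged replicate 2, and 0 of the 10. The cause was not tested. The median of the 10 genes lay between -0.00094 and 0.38 with 1 library left out, and was -0.055 without both young replicate 1 and aged replicate 2.

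The values of Hsp90aa1, Hspb1, Hspe1 and Hspa8 kept their sign under all 16 alternatives. Those of the others turned when single libraries were left out, with ranges of -0.10 to 0.64 for Hspa1a, -0.046 to 0.77 for Hspa1b, -0.29 to 0.24 for Hsph1, -0.38 to 0.21 for Dnajb1, -0.25 to 0.45 for Hspd1 and -0.011 to 0.33 for Bag3. Without both young replicate 1 and aged replicate 2, Hspa1a was at -0.10, Hspa1b at -0.097, Hsph1 at -0.11, Hspd1 at -0.20 and Bag3 at -0.070. Adding 1 or 0.1 to FPKM and fitting by limma moved the median of all genes to -0.12 and -0.19, and that of the 10 genes to 0.025 and 0.027. It gave -0.14 and -0.15 for Hsph1, -0.083 and -0.087 for Hspd1, and -0.026 and -0.027 for Bag3. A block for the replicate number gave 0 called genes by edgeR, the median of the 10 was 0.24, and 3 of them had an unadjusted p below 0.05. The deviations of same-numbered libraries correlated at 0.075, 0.11 and 0.088, not all above 0.1, and the numbers were not taken as pairs.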

Other observations

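Hspa13, which encodes an HSP70-like protein of microsomes, was at 3.53 CPM in aged replicate 2 and at 22.7 to 30.8 CPM in the other 5 libraries, the reverse of most cytosolic chaperone genes there. Hspa13 was chosen after its values were seen. Among brown adipocyte markers, Elovl3 was at 80.3 CPM in aged replicate 2 and at 6.67 CPM or less elsewhere. The mitochondrial HSP70 gene Hspa9, which works with the HSP60 and HSP10 chaperonin, ranged from 26.5 to 70.6 FPKM over the 6 libraries with a log2 fold change of 0.38 (adjusted p = 0.746 by edgeR).

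The ratio of Hspb1 to Bag3, which act together, was 3.71 to 4.08 in FPKM in the young libraries, and 5.36, 7.60 and 9.19 in aged replicates 1, 2 and 3. Dividing by Bag3 brought aged replicate 2 below aged replicate 3. The ratio of Hspa1a to Dnajb1 was 2.41, 2.25 and 2.70 in young and 1.75, 5.12 and 3.42 in aged aorta, so the aged libraries lay on both sides of the young ones. These ratios were chosen after the values were seen and were not tested.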
